A study of Phyllostachys edulis with 34 samples.

Results

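The data set out here are the leaves of moso bamboo (Phyllostachys edulis) seedlings after 3 h of salicylic acid (SA), set against their CK at 3 h. The libraries were chosen by their labels: 3 are labelled SA 3 h and 3 are labelled CK 3 h, 6 of the 34 libraries in all. All 59091 genes of the deposited table were considered, and 39089 passed the filter on low counts and were tested. The seedlings were 30 days old and stood in a Hoagland nutrient solution. The SA seedlings received 1 mM SA in that solution for 3 h, and CK is read as the untreated control of 3 h, although no label says so outright. The agent was thus given in the solution, while the RNA came from young leaves. The text also uses, with 3 libraries each, the seedlings at 3 h in 25% polyethylene glycol (PEG), 200 mM NaCl or 1 µM abscisic acid (ABA), and those of SA and CK at 24 h. The study describes its replicates as biological. Whether a library pooled several seedlings is not stated in the labels or methods. The labelled tissue could not be checked against marker genes, because no leaf marker is named under these identifiers in the labels or the study.

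Salicylic acid is a phenolic plant hormone best known from defence against biotrophic pathogens. In Arabidopsis it is perceived by NPR receptor proteins, which act with TGA transcription factors on defence genes. It is itself made from chorismate, partly by way of cinnamic acid, so that its synthesis and that of lignin can draw on the same phenylpropanoid entry. Lignin, the phenolic polymer of secondary cell walls, is made from phenylalanine by a chain of enzyme families: PAL, C4H and 4CL form the entry, HCT, C3H and CSE add a ring hydroxyl by way of shikimate esters, CCoAOMT and F5H act on the methoxyl pattern, and CCR and CAD reduce the products to the alcohols that are polymerised. Genes of these families are named by the study under the identifiers of the files. They make up the lignin list used here, with 157 entries in 10 families. The files hold 156 separate genes for them, of which 125 were tested. Of the other 31, 20 had no count in the 6 libraries and 11 had at most 15 counts in any of them. The remaining genes of the files carry identifiers only.

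Each of the SA 3 h libraries held 31198143 to 41295841 counts, and each of the CK 3 h libraries 32579837 to 50659602. Where a library shows 0 counts, up to 3 are still possible, by counting error alone. Replicates of a group resembled each other closely, with Spearman's rho across 16856 genes of 0.988 to 0.990 within SA 3 h and within CK 3 h, against 0.636 to 0.639 between an SA 3 h and a CK 3 h library. These rho values run across genes, and genes do not replicate each other. Among the libraries of the series, replicate 1 of those labelled 0 h stood apart from the other 3. The libraries labelled 0 h were therefore left out of the fit, which used the other 30.

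The expression of a large part of the genome differed after 3 h of SA. In edgeR's quasi-likelihood test, 5665 genes were higher and 5583 genes were lower in SA 3 h than in CK 3 h by 2-fold or more with an adjusted p below 0.05, called the threshold from here on. These are 14.5% and 14.3% of the genes tested, 28.8% in both directions. The genes that rose held 43.4%, 43.7% and 43.6% of all counts in the SA 3 h libraries, against 10.3%, 10.3% and 10.3% in the CK 3 h libraries. The genes that fell held 5.14%, 5.24% and 5.17% of the counts in the SA 3 h libraries, against 22.7%, 22.7% and 22.6% in the CK 3 h libraries. The leaf transcriptome was thus taken up to a large part by the genes that rose. The 20 rising genes with the largest gain in share made up 6.53% of the counts in SA 3 h and 0.697% in CK 3 h, so the gain was spread over many genes. In bulk leaves, a change in the number of cells of a type and a change of RNA per cell cannot be told apart.

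This shift in composition bears on the scale of every change. edgeR's TMM scaling, which sets the bulk of the genes equal between libraries, gave factors of 0.859 to 0.868 in SA 3 h and 1.11 to 1.12 in CK 3 h. FPKM values, which relate fragments to transcript length and to the mapped reads of the library, hold no such factor. Over the 23985 genes with a mean of at least 1 FPKM in each group, the log2 ratio of mean FPKM minus the log2 fold change of edgeR had a median of -0.36. With the library totals in place of TMM, 4285 genes rose and 8711 fell, so that the risers were 33% of the genes past the threshold, against 50.4% with TMM. With limma on log2(FPKM + 0.1), 3740 rose and 7222 fell, and the risers were 34.1%. No gene past the threshold with TMM passed it in the opposite direction under either. With the library totals this outcome was fixed in advance. The log2 fold changes shifted there by a median of -0.36, too little to turn a 2-fold change. Of the 11248 genes past it with TMM, 87.7% kept their call with the library totals and 73.4% with limma. The limma fit did not include 1827 of them, so those could not turn there. The levels below are given in FPKM, and the log2 fold changes and adjusted p (Benjamini-Hochberg) are those of edgeR with TMM.

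**Figure D1:**
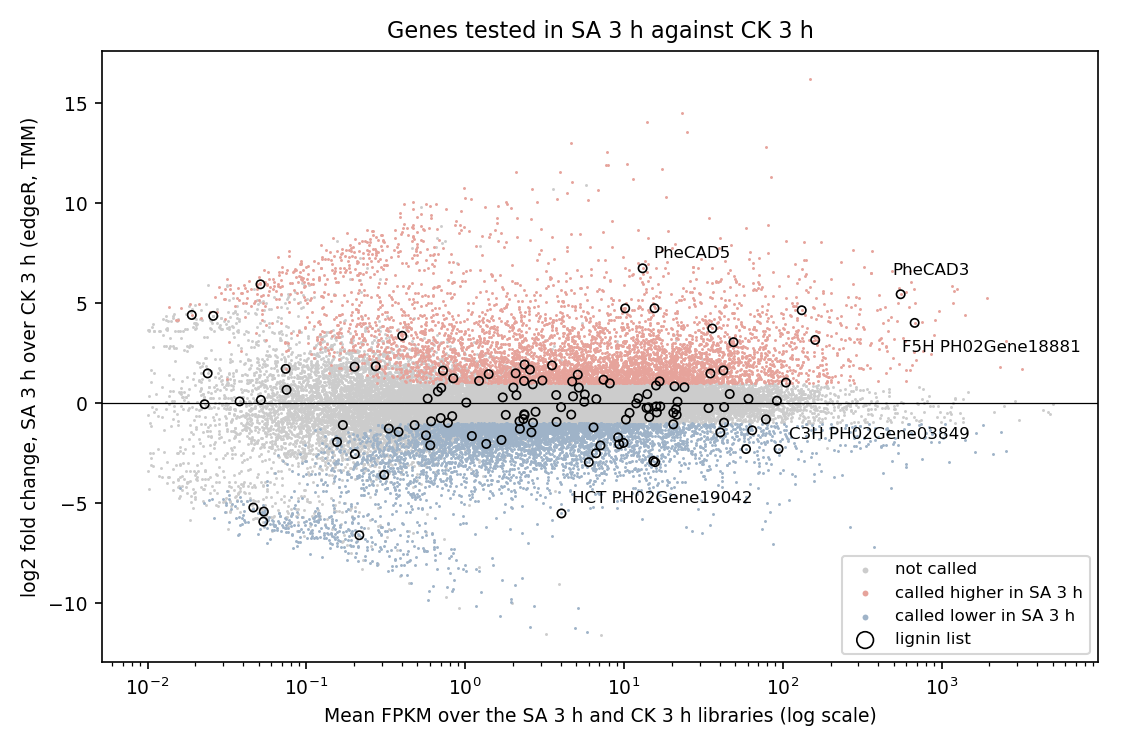
Each point is a gene tested, with its mean FPKM over the 6 libraries (log scale, genes at 0.01 FPKM and above) on the horizontal axis and its log2 fold change in SA 3 h over CK 3 h (edgeR) on the vertical axis. The 5665 genes that rose are red, the 5583 that fell are blue, and open circles are genes of the lignin list, with PheCAD3 and F5H PH02Gene18881 at the far right among the risers.

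Large changes took a larger share of the genes that rose than of those that fell. A change of at least 8-fold was found in 1818 of the risers (32.1%) and in 1137 of the fallers (20.4%). The median log2 fold change was 2.17 in the risers and -1.79 in the fallers. With the library totals, 1455 risers (34%) and 1610 fallers (18.5%) changed at least 8-fold, so that the shares kept their order and the numbers did not. The direction also varied with the level: among genes with a mean of 0.1 to 1 FPKM, 10.8% rose and 15.4% fell, and among those with 100 to 1000 FPKM, 36.5% rose and 14.7% fell, while of the 43 genes at 1000 FPKM and above 20.9% rose and 25.6% fell. Between SA 3 h and CK 3 h, some genes were seen in a single group only, whatever their counts in the rest of the series. Of the risers, 364 had no count in any CK 3 h library, and 172 of these had at least 10 counts in each SA 3 h library. Of the fallers, 363 had no count in any SA 3 h library, and 141 of these had at least 10 counts in each CK 3 h library.

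The 2 largest rises of genes outside the lignin list with a mean of at least 10 FPKM were both of this kind. PH02Gene46295 had 292, 300 and 297 FPKM in the SA 3 h libraries and was at 0 counts in all CK 3 h libraries. With CK at 3 counts per library it was at least 3830-fold higher (edgeR adjusted p = 0.000148). PH02Gene29633 had 48.4, 45.4 and 44.8 FPKM in SA 3 h and 0 counts in all CK 3 h libraries, which is at least 1180-fold higher (edgeR adjusted p = 4.77e-14). The SA 3 h libraries lay close together for these genes. In other groups PH02Gene46295 was uneven, at 78.2, 0 and 72.3 FPKM in SA 24 h and 0, 0 and 14.5 FPKM in ABA 3 h. It was also present in NaCl 3 h, at 108.5, 142.5 and 105.7 FPKM. The 2 largest falls were uneven within CK 3 h itself. PH02Gene50943 had 0 counts in all SA 3 h libraries, against 507, 878 and 0 counts in CK 3 h (edgeR adjusted p = 0.0377). PH02Gene13343 likewise had 0 counts in all SA 3 h libraries, against 60, 618 and 0 counts in CK 3 h (edgeR adjusted p = 0.0479). The groups overlapped for this pair, since CK 3 h replicate 3 was at 0. Neither fall passed the threshold with all 34 libraries in the fit or when CK 3 h replicate 2 or any single SA 3 h replicate was left out, and PH02Gene50943 also missed it without CK 3 h replicate 1.

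The lignin list moved in both directions. Of its 125 tested genes, 29 rose (23.2%) and 25 fell (20%), beside 14.5% and 14.3% of all genes tested, and 71 did not pass the threshold. The median log2 fold change was -0.05 over the list and -0.07 over all genes tested. With the 7 list members that had no count in either SA 3 h or CK 3 h set to their bound, the list median stayed at -0.05. With the library totals in place of TMM, 19 list genes rose and 40 fell, beside 11% and 22.3% of all genes tested, and with limma on log2(FPKM + 0.1) 16 rose and 29 fell, beside 12.8% and 24.7% of the 29281 genes tested there. Of the 10 families, 9 held genes of each direction, and C3H held a faller only. The summed FPKM of the list was 4132, 4210 and 4206 in the SA 3 h libraries, against 1920, 1914 and 1864 in the CK 3 h libraries. Sums of FPKM here and below are descriptions, with no test. They hold no TMM factor, and log2 ratios of FPKM differed from the log2 fold changes of edgeR by a median of -0.36. A small difference between sums can therefore depend on the scale. The handling of reads with several matching genes is unknown, so the split between near-identical family members is uncertain.

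**Figure D2:**
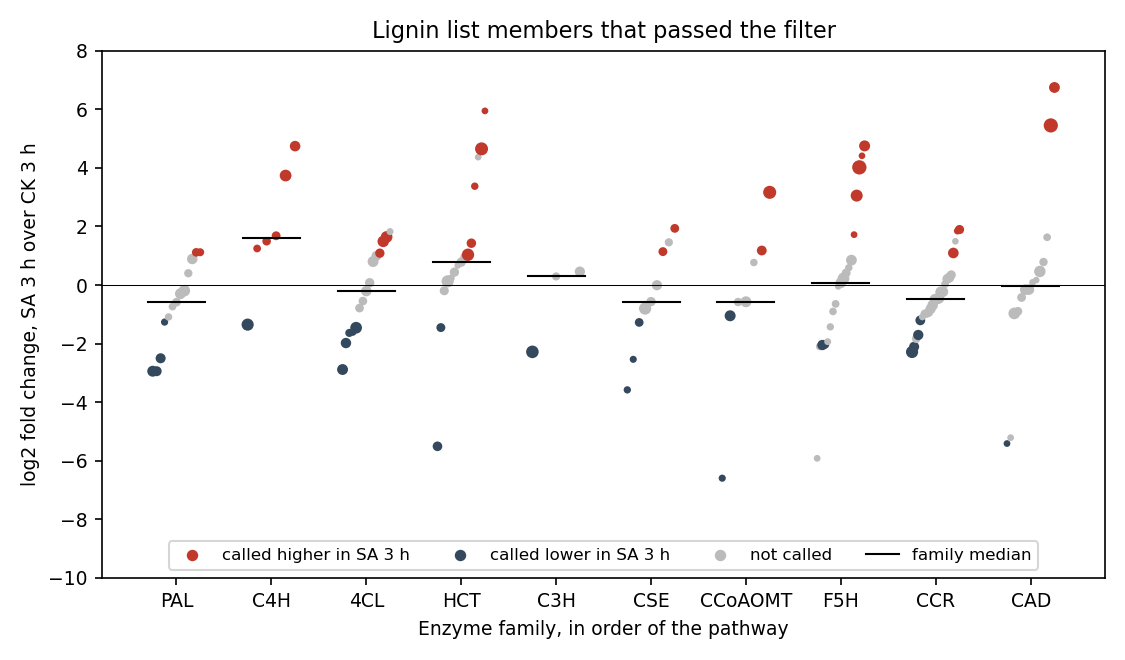
Each point is a tested gene of the lignin list, ordered by log2 fold change in SA 3 h over CK 3 h (edgeR, vertical axis) within its family (horizontal axis, in pathway order), and larger points have a higher FPKM. Families with a riser at a high level, such as F5H and CAD, have a median near 0, and C4H has the highest median (1.59).

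At the entry of the pathway, PAL was lower in sum. PAL removes the amino group of phenylalanine and so opens the pathway. The 14 PAL genes summed to 84.9, 84.9 and 84.0 FPKM in the SA 3 h libraries, against 151.5, 155.4 and 146.5 FPKM in the CK 3 h libraries. Of the 13 tested, 2 rose and 4 fell. The falls came in 2 pairs of neighbouring identifiers. PH02Gene23138, the largest fall by the fitted change, had 1.34, 0.950 and 1.00 FPKM in SA 3 h, against 10.6, 11.1 and 11 FPKM in CK 3 h (log2 fold change -2.94, SE 0.23, edgeR adjusted p = 1.11e-11). Its neighbour PH02Gene23137, named after its values were seen, fell by 2.50 on the log2 scale (SE 0.18, edgeR adjusted p = 1.68e-12). The other pair, also named after its values were seen, was PH02Gene08452, with 3.30, 3.02 and 2.36 FPKM in SA 3 h against 28.6, 28.9 and 28.2 FPKM in CK 3 h, and PH02Gene08453, whose mean was 0.161 FPKM in SA 3 h and 0.501 FPKM in CK 3 h. PH02Gene08453 missed the threshold with all 34 libraries in the fit (edgeR adjusted p = 0.0761). The PAL gene with the highest level, PH02Gene27016, had 34.2, 35.0 and 34.6 FPKM in SA 3 h, against 52.6, 52.7 and 47.4 FPKM in CK 3 h. It did not pass the threshold (log2 fold change -0.19, SE 0.10, edgeR adjusted p = 0.117). The largest rise, PH02Gene27012, was small, with 1.47, 1.76 and 1.38 FPKM in SA 3 h against 1.24, 0.574 and 0.919 FPKM in CK 3 h (log2 fold change 1.12, SE 0.39, edgeR adjusted p = 0.0178). It missed the threshold with the library totals (0.75 on the log2 scale) and with limma on log2(FPKM + 0.1) (0.74), and likewise when CK 3 h replicate 2 (0.82), CK 3 h replicate 3 (1.08) or SA 3 h replicate 2 (0.97) was left out.

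C4H, the monooxygenase that hydroxylates cinnamic acid, was little changed in summed FPKM, without the TMM factor, but was made up of other genes. The summed FPKM of its 6 genes was 124.8, 119.7 and 123.5 in the SA 3 h libraries, against 112.7, 109.4 and 105.1 in the CK 3 h libraries. Within it, 5 genes rose and 1 fell. PH02Gene03697, the fall and the C4H gene with the highest level over the 6 libraries, had 31.9, 28 and 30.1 FPKM in SA 3 h, against 101.5, 99.2 and 94.7 FPKM in CK 3 h (log2 fold change -1.35, SE 0.10, edgeR adjusted p = 3e-12). PH02Gene44264, the largest rise, had 19.8, 19.1 and 19.3 FPKM in SA 3 h, against 1.05, 0.580 and 1.22 FPKM in CK 3 h (log2 fold change 4.74, SE 0.25, edgeR adjusted p = 2.95e-15). PH02Gene46974, named after its values were seen, had 64.9, 65.8 and 66.3 FPKM in SA 3 h, against 6.35, 6.12 and 6.49 FPKM in CK 3 h (log2 fold change 3.74, SE 0.17, edgeR adjusted p = 1.21e-16). The groups did not overlap for any of these C4H genes, which also held for 66.2% of all genes tested (TMM-scaled counts). PH02Gene46974 thereby took 52.0%, 55.0% and 53.7% of the C4H FPKM in SA 3 h, against 5.63%, 5.59% and 6.17% in CK 3 h, while PH02Gene03697 took 25.6%, 23.4% and 24.3% in SA 3 h, against 90.0%, 90.7% and 90.1% in CK 3 h. Such a share within a library does not depend on the scaling between libraries.

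4CL joins hydroxycinnamic acids to coenzyme A and closes the entry. Of its 15 tested genes, 3 rose and 5 fell, and the sum of its 16 genes was 196 ± 5.15 FPKM in SA 3 h and 216.8 ± 6.51 FPKM in CK 3 h (SD, n = 3 each). PH02Gene22501 was the rising member with the highest level, at 58.9, 59.9 and 60.8 FPKM in SA 3 h against 24.5, 24.8 and 24.7 FPKM in CK 3 h (log2 fold change 1.64, SE 0.10, edgeR adjusted p = 4.29e-14). The largest fall was PH02Gene03793, at 2.60, 2.56 and 3.55 FPKM in SA 3 h against 26.9, 29.8 and 26.6 FPKM in CK 3 h (log2 fold change -2.89, SE 0.14, edgeR adjusted p = 6.84e-16). The 4CL gene that led in CK was another faller: PH02Gene26838, named after its values were seen, had 19, 16.7 and 17.8 FPKM in SA 3 h, against 62.9, 66.4 and 60.0 FPKM in CK 3 h (log2 fold change -1.46).

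**Figure D3:**
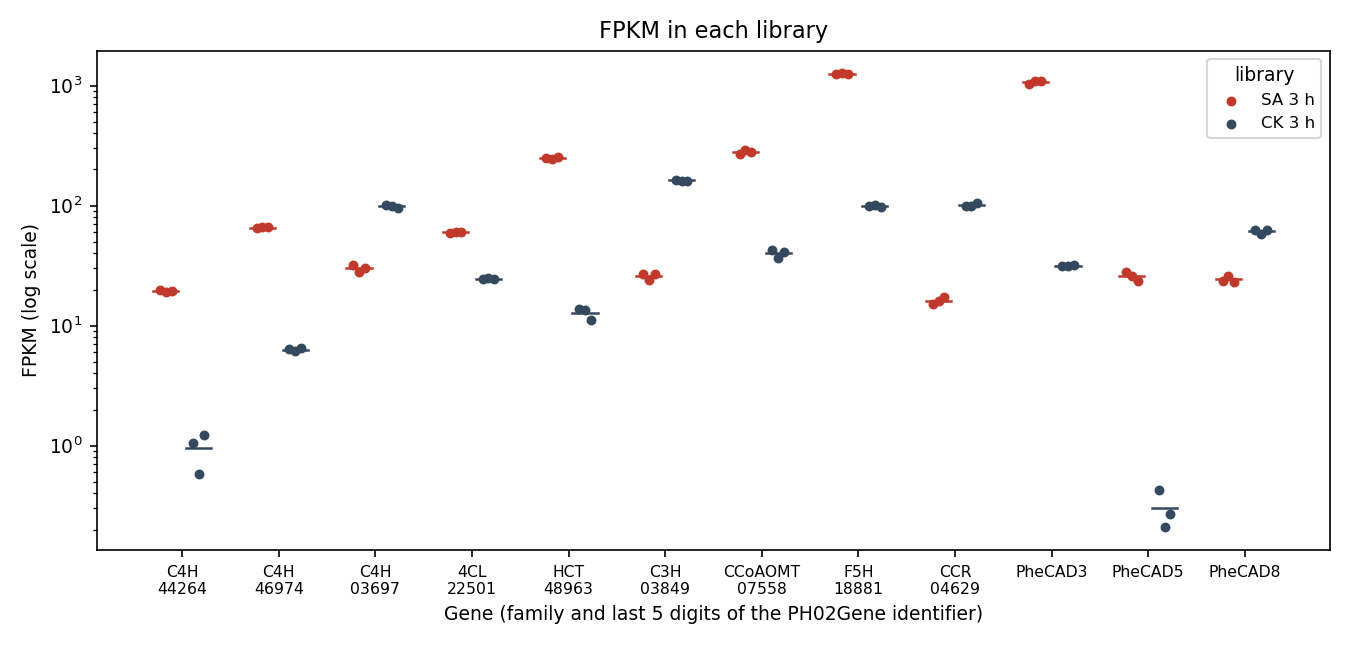
FPKM (log scale) of 12 lignin genes in each SA 3 h library (red, left) and each CK 3 h library (dark, right), with the group mean as a line. The groups are apart for every gene shown, with PheCAD3 and F5H PH02Gene18881 above 1000 FPKM in SA 3 h and C3H PH02Gene03849, C4H PH02Gene03697, CCR PH02Gene04629 and PheCAD8 lower in SA 3 h. Over all genes tested, the groups did not overlap in 66.2% (TMM-scaled counts).

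In the ring hydroxylation step, HCT was higher in sum, most of it in a single gene, and C3H was lower. HCT moves the p-coumaroyl group onto shikimate, on which C3H then acts. The 21 HCT genes summed to 485.7, 489.2 and 500.5 FPKM in the SA 3 h libraries, against 233.3, 223.4 and 221.2 FPKM in the CK 3 h libraries. Of the 15 tested, 5 rose and 2 fell. PH02Gene48963, which the list places in HCT and the text of the study in CCR, had 251, 246 and 255 FPKM in SA 3 h, against 13.7, 13.5 and 11.2 FPKM in CK 3 h (log2 fold change 4.65, SE 0.14, edgeR adjusted p = 2.22e-20). Its share of the HCT FPKM was 51.0% in SA 3 h and 5.67% in CK 3 h. Without it, the HCT genes summed to 234.3, 243.7 and 245.2 FPKM in SA 3 h, against 219.6, 209.8 and 210 FPKM in CK 3 h. PH02Gene24931, named after its values were seen, led the family in CK and had a mean of 84.4 ± 3.35 FPKM in SA 3 h and 99.4 ± 4.60 FPKM in CK 3 h (SD, n = 3 each), and it did not pass the threshold (log2 fold change 0.13, edgeR adjusted p = 0.342). The sign of that change turned with the scale: it was -0.24 with the library totals. The neighbouring identifiers PH02Gene19042 and PH02Gene19041 parted. PH02Gene19042 had 0.107, 0.0815 and 0.184 FPKM in SA 3 h, against 7.65, 7.84 and 8.38 FPKM in CK 3 h (log2 fold change -5.51, SE 0.38, edgeR adjusted p = 1.27e-12), while PH02Gene19041, named after its values were seen, had 5.32, 5.93 and 6.60 FPKM in SA 3 h, against 4.497, 4.88 and 3.96 FPKM in CK 3 h (log2 fold change 0.78, under the threshold). The largest HCT rise by the fitted change, PH02Gene11151, rested on 5, 0 and 17 counts in SA 3 h, against 0 counts in all CK 3 h libraries. It missed the threshold when SA 3 h replicate 3 or any single CK 3 h replicate was left out.

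C3H, which hydroxylates the shikimate ester, had its leading gene lowered. PH02Gene03849 had 26.9, 24.0 and 26.9 FPKM in SA 3 h, against 164.5, 161.2 and 161.1 FPKM in CK 3 h (log2 fold change -2.28, SE 0.09, edgeR adjusted p = 2.43e-18). The other 2 genes of the family did not pass the threshold. The 3 genes together had 41.7, 41.4 and 43.2 FPKM in SA 3 h, against 180.5, 177.7 and 174.5 FPKM in CK 3 h. CSE, an esterase that frees caffeic acid from its shikimate ester, had 2 risers and 3 fallers among 9 tested genes. The leading CSE gene PH02Gene34362 had 50.8, 46.0 and 48.2 FPKM in SA 3 h, against 105.5, 116.6 and 103.1 FPKM in CK 3 h. It stayed under the threshold with TMM (log2 fold change -0.80, SE 0.08) and passed it with the library totals (-1.17) and with limma on log2(FPKM + 0.1) (-1.16). The CSE genes with the largest changes had low levels: PH02Gene14766 averaged 3.54 FPKM in SA 3 h and 1.19 FPKM in CK 3 h (log2 fold change 1.93, edgeR adjusted p = 7.19e-06), and PH02Gene38043 averaged 0.0306 FPKM in SA 3 h and 0.588 FPKM in CK 3 h (log2 fold change -3.58, edgeR adjusted p = 5.12e-05).

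The methoxyl branch held the highest lignin gene of the SA leaves. F5H hydroxylates the guaiacyl-type precursors and so leads to syringyl units. The 33 F5H genes, of which 19 were tested, summed to 1479, 1494 and 1470 FPKM in the SA 3 h libraries, against 243.2, 252.6 and 241.4 FPKM in the CK 3 h libraries. Of the 19, 5 rose and 2 fell. PH02Gene18881 had 1259, 1262 and 1245 FPKM in SA 3 h, against 99.7, 100.8 and 98.2 FPKM in CK 3 h (log2 fold change 4.02, SE 0.07, edgeR adjusted p = 3.98e-25). It took 84.8% of the F5H FPKM in SA 3 h and 40.5% in CK 3 h. The gene with the next identifier, PH02Gene18882, named after its values were seen, had 86.3, 83.6 and 84.4 FPKM in SA 3 h, against 12.9, 14 and 12.5 FPKM in CK 3 h (log2 fold change 3.05, SE 0.12, edgeR adjusted p = 4.58e-18). The largest F5H rise was PH02Gene15790, at 28.2, 32.2 and 28.8 FPKM in SA 3 h against 1.52, 1.11 and 1.63 FPKM in CK 3 h (log2 fold change 4.75, SE 0.45, edgeR adjusted p = 8.24e-10). PH02Gene34078 had the largest fall past the threshold, at 3.00, 2.99 and 2.88 FPKM in SA 3 h against 14.5, 15.7 and 17 FPKM in CK 3 h (log2 fold change -2.05, SE 0.15, edgeR adjusted p = 6.33e-12).

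CCoAOMT, which methylates caffeoyl-CoA, moved in both directions, and 2 of its 7 tested genes rose and 2 fell. Its leading gene PH02Gene07558 had 269.9, 292.1 and 278.3 FPKM in SA 3 h, against 42.9, 36.9 and 40.8 FPKM in CK 3 h (log2 fold change 3.16, SE 0.12, edgeR adjusted p = 3.13e-18). It made up 88.2% of the CCoAOMT FPKM in SA 3 h and 37.6% in CK 3 h. The list and the text of the study differ on the family of 1 of the genes that fell, and without that gene the share was 91.4% in SA 3 h and 52.1% in CK 3 h. The fall with the largest fitted change, PH02Gene50882, had 0 counts in all SA 3 h libraries, against 19, 29 and 0 counts in CK 3 h, so that the groups overlapped. It missed the threshold when CK 3 h replicate 1, CK 3 h replicate 2 or any single SA 3 h replicate was left out.

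The reductases CCR and CAD end the pathway. CCR turns the CoA esters into aldehydes. The 30 CCR genes summed to 167.7, 171.5 and 166 FPKM in the SA 3 h libraries, against 344.7, 342 and 345.4 FPKM in the CK 3 h libraries, and 3 of the 24 tested rose and 4 fell. The direction of this sum rests on the family given to PH02Gene48963: counted in CCR, as the text of the study has it, the sum was 419.2, 417 and 421.3 FPKM in SA 3 h, against 358.4, 355.6 and 356.6 FPKM in CK 3 h. PH02Gene04629, the CCR gene with the highest level in CK 3 h, was the largest fall, at 15.0, 16 and 17.4 FPKM in SA 3 h against 100, 98.8 and 105.2 FPKM in CK 3 h (log2 fold change -2.29, SE 0.10, edgeR adjusted p = 6.46e-17). Among the CCR genes of the list, the highest level in SA 3 h was that of PH02Gene06795, named after its values were seen. It held 16.1% of the CCR FPKM in SA 3 h and 12% in CK 3 h. The largest rise among them was PH02Gene01698, at 5.48, 4.95 and 5.30 FPKM in SA 3 h against 1.78, 1.65 and 1.99 FPKM in CK 3 h (log2 fold change 1.89, SE 0.25, edgeR adjusted p = 2.53e-07). Counted in CCR, PH02Gene48963 would have both the highest level in SA 3 h and the largest rise.

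CAD reduces these aldehydes to the alcohols from which lignin is polymerised, and all 14 PheCAD genes were tested. Their sum was 1172, 1218 and 1229 FPKM in the SA 3 h libraries, against 189.1, 180.9 and 186.5 FPKM in the CK 3 h libraries. The study reads PheCAD3 and PheCAD5 as involved only in the abiotic stress response, and proposes PheCAD2 as a key lignin enzyme. Most of the SA 3 h sum came from PheCAD3 (PH02Gene38470). It had 1039, 1084 and 1099 FPKM in SA 3 h, against 31.2, 31.6 and 31.9 FPKM in CK 3 h. On the TMM scale of edgeR, which differs from that of FPKM, the rise was 43.7-fold (log2 fold change 5.45, SE 0.18, edgeR adjusted p = 1.12e-19). Its neighbour by identifier, PheCAD5 (PH02Gene38471), had 28.2, 26 and 23.6 FPKM in SA 3 h, against 0.431, 0.209 and 0.270 FPKM in CK 3 h (log2 fold change 6.75, SE 0.55, edgeR adjusted p = 9.12e-11). PheCAD3 held 88.7%, 89.0% and 89.5% of the CAD FPKM in SA 3 h, against 16.5%, 17.4% and 17.1% in CK 3 h. PheCAD8 (PH02Gene13789), the CAD gene with the highest level in CK 3 h, held 2.01% in SA 3 h and 32.9% in CK 3 h.

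**Figure D4:**
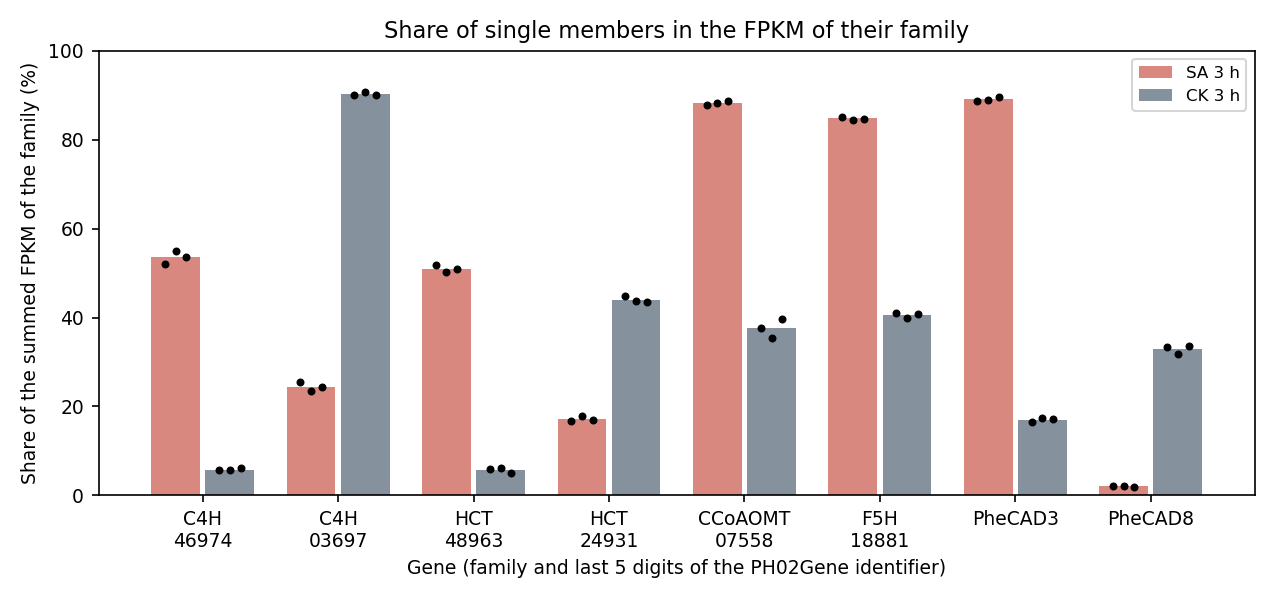
Bars are the mean share (%, from 0 to 100) of a single gene in the summed FPKM of its family in SA 3 h (red, left) and CK 3 h (grey, right), and dots are the 3 libraries of each group. PheCAD3, F5H PH02Gene18881, CCoAOMT PH02Gene07558, HCT PH02Gene48963 and C4H PH02Gene46974 held the larger share in SA 3 h, and C4H PH02Gene03697, HCT PH02Gene24931 and PheCAD8 in CK 3 h.

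Of the other PheCAD genes, only PheCAD9 passed the threshold, and it was close to absent. PheCAD9 (PH02Gene26598) had 0 counts in all SA 3 h libraries, against 6, 7 and 6 counts in CK 3 h, at least 1.54-fold lower with SA at 3 counts per library (edgeR adjusted p = 0.0217). It missed the threshold when any single SA 3 h replicate was left out. PheCAD10 (PH02Gene13790) had 0 counts in all SA 3 h libraries, against 12, 4 and 0 counts in CK 3 h, and did not pass (edgeR adjusted p = 0.111). PheCAD6 (PH02Gene48202) and PheCAD7 (PH02Gene32740) had 2 to 6 counts in each SA 3 h library and 2 to 9 counts in each CK 3 h library, and a difference was not detectable at this depth.

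The other PheCAD genes stayed under the threshold. PheCAD8 had 23.5, 26 and 23.2 FPKM in SA 3 h, against 62.9, 57.6 and 62.8 FPKM in CK 3 h. Its log2 fold change of -0.97 (SE 0.09, edgeR adjusted p = 3.46e-10) lay just under the 2-fold limit, and it passed with the library totals (-1.34), with limma on log2(FPKM + 0.1) (-1.33), with no filter (-1.02) and with SA 3 h replicate 2 (-1.06) or CK 3 h replicate 2 (-1.05) left out. PheCAD2 (PH02Gene39617) had 12.9, 13.3 and 13.1 FPKM in SA 3 h, against 18.9, 18.9 and 18.6 FPKM in CK 3 h, and PheCAD1 (PH02Gene46268) had 13.9, 13.6 and 14.3 FPKM in SA 3 h, against 19.6, 20.4 and 19.8 FPKM in CK 3 h. For this pair the FPKM did not overlap between groups, yet the log2 fold changes with TMM were both -0.16 (edgeR adjusted p = 0.255 for PheCAD2 and 0.309 for PheCAD1), since the scaling takes up most of the difference. PheCAD12 (PH02Gene49901) had 47.5, 47.4 and 49.0 FPKM in SA 3 h, against 46.8, 41.9 and 45.6 FPKM in CK 3 h (log2 fold change 0.46, edgeR adjusted p = 0.0029). PheCAD4 (PH02Gene44682) averaged 1.29 FPKM in SA 3 h and 3.11 FPKM in CK 3 h (log2 fold change -0.90, edgeR adjusted p = 0.0061), and its change passed the threshold with the library totals (-1.26), with limma on log2(FPKM + 0.1) (-1.20) and with SA 3 h replicate 3 (-1.03) or CK 3 h replicate 3 (-1.02) left out. PheCAD13 (PH02Gene48685) averaged 2.04 FPKM in SA 3 h and 3.51 FPKM in CK 3 h (log2 fold change -0.43, edgeR adjusted p = 0.0753), and PheCAD14 (PH02Gene04778) averaged 2.32 FPKM in SA 3 h and 1.70 FPKM in CK 3 h (log2 fold change 0.78, edgeR adjusted p = 0.0174). PheCAD11 (PH02Gene13791) had 1.02, 1.27 and 0.796 FPKM in SA 3 h, against 0.324, 0.546 and 0.392 FPKM in CK 3 h. It missed the threshold (log2 fold change 1.63, SE 0.69, edgeR adjusted p = 0.0526) and passed it with the SA 3 h and CK 3 h libraries alone in the fit (1.64), with DESeq2 size factors (1.67) and with DESeq2 (1.68).

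SA was then set directly against the other agents at 3 h, without CK. At the same threshold, SA 3 h differed from PEG 3 h in 24.5% of the genes tested, from NaCl 3 h in 16.1% and from ABA 3 h in 34.2%. In the lignin list, 40, 45 and 57 of the 125 genes differed (32%, 36% and 45.6%). Genes higher in SA 3 h than in each of CK, PEG, NaCl and ABA at 3 h numbered 1302 (3.33% of those tested), and genes lower than in each numbered 1310 (3.35%). The list held 9 of the first (7.20%) and 13 of the second (10.4%). All these comparisons share the SA 3 h libraries. The 9 were PheCAD3, PheCAD5, C4H PH02Gene46974, HCT PH02Gene48963, F5H PH02Gene18881, PH02Gene18882 and PH02Gene15790, CCR PH02Gene01698 and another CCR gene. The 13 held the 4 PAL genes that fell, C4H PH02Gene03697, 4CL PH02Gene03793, HCT PH02Gene19042, F5H PH02Gene34078, CSE PH02Gene38043 and 4 more of 4CL, CCR and CCoAOMT.

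The levels of these genes under the other agents are given as a description, since those agents were not tested against CK. F5H PH02Gene18881 averaged 1255 FPKM in SA 3 h, against 284.2 for PEG, 98.6 for NaCl and 47.9 for ABA at 3 h. Its log2 difference was 2.11 between SA and PEG, 4.00 between SA and NaCl and 4.95 between SA and ABA. PheCAD3 averaged 1074 FPKM in SA 3 h, against 241.9 for PEG, 471.4 for NaCl and 147.7 for ABA at 3 h, and each of these other levels was above the 31.6 FPKM of CK 3 h. C4H PH02Gene03697 averaged 29.98 FPKM in SA 3 h, against 83.8 for PEG, 155.8 for NaCl and 131.5 for ABA at 3 h. It held 24.4% of the C4H FPKM in SA 3 h, against 69.2% for PEG, 69.5% for NaCl and 75.4% for ABA at 3 h.

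**Figure D5:**
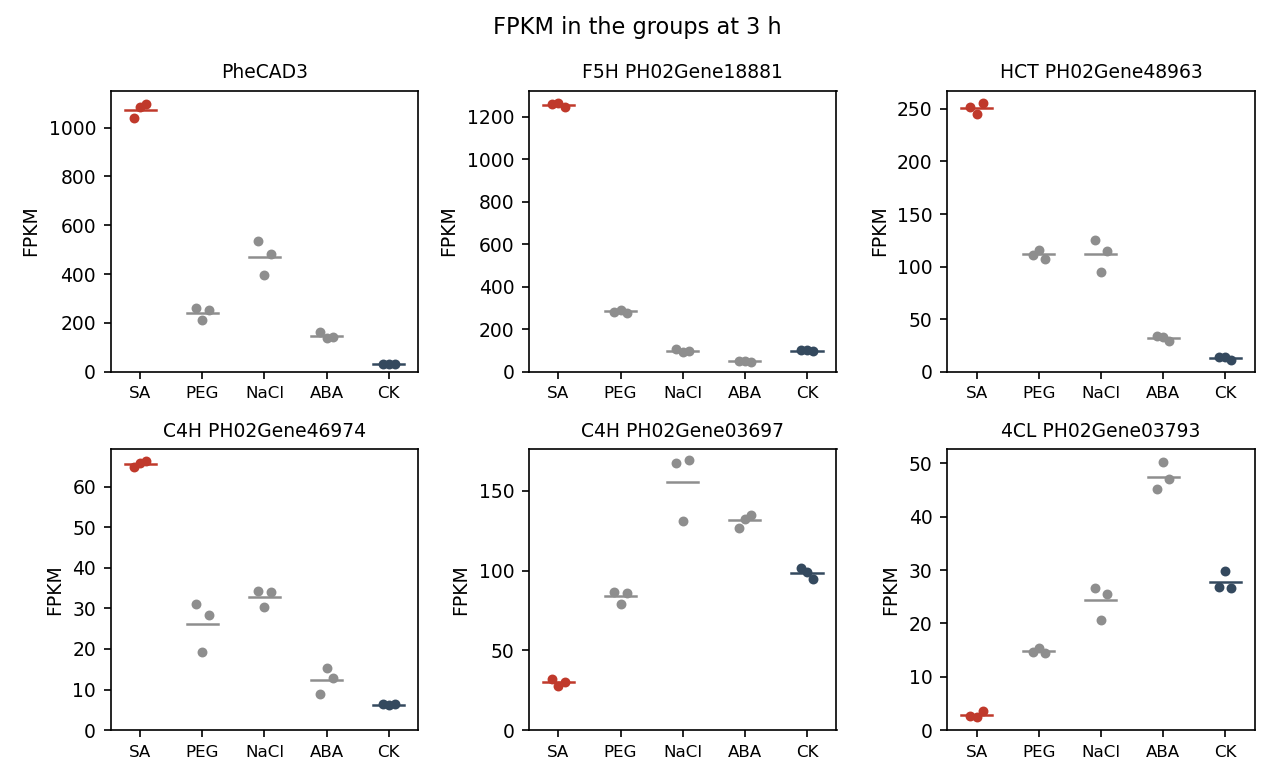
FPKM (from 0) of 6 lignin genes in the libraries of SA, PEG, NaCl, ABA and CK at 3 h, with the group mean as a line. The 3 SA libraries lie above all others for PheCAD3, F5H PH02Gene18881, HCT PH02Gene48963 and C4H PH02Gene46974 and below all others for C4H PH02Gene03697 and 4CL PH02Gene03793.

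The libraries of 24 h, which share none with those of 3 h, were used to see whether the changes were found again. Both comparisons came from the same fit, with the same filter and a shared estimate of the spread. Their calls are therefore not fully independent. In SA 24 h against CK 24 h, 9.03% of the genes tested were higher and 11.7% lower. Of the 5665 genes that rose at 3 h, 2096 (37.0%, and 59.4% of the risers of 24 h) rose at 24 h, 3298 did not pass and 271 fell. Of the 5583 that fell at 3 h, 2099 (37.6%, and 45.9% of the fallers of 24 h) fell at 24 h, 3344 did not pass and 140 rose. In the lignin list, 28 genes rose (22.4%) and 25 fell (20%) at 24 h. Of the 29 list genes that rose at 3 h, 20 rose at 24 h, and of the 25 that fell, 12 fell at 24 h. None of the list genes past the threshold at 3 h passed it in the other direction at 24 h. This was rare over all genes too: 4.78% of the risers of 3 h fell at 24 h and 2.51% of the fallers rose.

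The difference between the SA effects at 24 h and at 3 h was tested itself. Of the genes tested, 8.9% had a higher log2 fold change at 24 h than at 3 h at the threshold and 11.1% a lower one. In the list, 18 of 125 genes had a higher and 21 a lower log2 fold change at 24 h. The 3 h libraries enter both this difference and the calls of 3 h, so that no count of it is given for the genes that rose or fell at 3 h. PheCAD3 belonged to those with a larger rise at 24 h: it had 2205, 2269 and 2489 FPKM in SA 24 h, against 15.8, 11.9 and 10.8 FPKM in CK 24 h, and its log2 fold change was 1.99 larger than at 3 h (SE 0.21, edgeR adjusted p = 1.81e-08). F5H PH02Gene18881 belonged to those with a smaller rise: it had 290.9, 293.4 and 327 FPKM in SA 24 h, against 116.8, 115.2 and 110.6 FPKM in CK 24 h, and the difference from 3 h was -2.66 on the log2 scale (SE 0.09, edgeR adjusted p = 4.8e-18). C4H PH02Gene03697 held 54.3% of the C4H FPKM in SA 24 h, against 86.5% in CK 24 h.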

How the data were processed

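Raw counts per gene, not normalized, were deposited by the authors, with FPKM values of their own computation; the count totals differ between libraries. Per the labels' processing notes, HISAT2 and DESeq2 were used, without versions. For the counter, the genome build and the annotation nothing is stated (not given in the sources used here). The mRNA was captured by poly-T beads, and no strand setting is stated, so overlapping genes may share reads. Columns were matched to samples by their label, and no replicate columns were identical. The chi-square per degree of freedom between replicates was 6.20 to 9.20, above sampling noise.

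Counts were filtered with filterByExpr, scaled by TMM and fitted by edgeR 4.0.16 (R 4.3.3, quasi-likelihood, a mean for each of 10 groups, 30 libraries), with Benjamini-Hochberg adjustment over 39089 genes. Standard errors are approximate, from the log2 fold change divided by the root of F. On simulated counts of this comparison, 200 of 200 genes changed 4-fold among 36573 were recovered, with 3 false calls. The simulation changed only those 200 genes, at well-counted levels and with the same spread for every gene. It therefore says little about errors at low counts or where 28.8% of the genes pass the threshold, as here. Alternatives were DESeq2 1.42.0 and its size factors, library totals, no filter, other sets of libraries, the replicate number as a block, limma 3.58.1 on log2(FPKM + 0.1) and log2(FPKM + 1) for genes with a mean of at least 1 FPKM, and each replicate left out. Tables and plots were made with Python 3.11.15, pandas 2.3.3 and matplotlib 3.10.9.

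Named genes are all PheCAD genes, in each other family the largest rise and the largest fall past the threshold and the gene with the highest mean FPKM, and the 2 largest rises and falls of other genes with at least 10 FPKM; others are marked in the text. The families and lists were chosen with earlier results of these data known. Part of the lignin list of the study is not reported here. A fold against a group at 0 uses 3 counts per library.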

Additional observations from a re-analysis of the deposited data

Results flagged for a closer look

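For the genes named in the report, the difference between the SA effect at 24 h and at 3 h, each relative to its own CK, passed the threshold in 23 cases (edgeR, log2 fold change at 24 h minus that at 3 h). Over all genes tested this difference had a median of -0.01. Many of the named genes were chosen by their change at 3 h, and the 3 h libraries enter the difference too.

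Among the genes that rose at 3 h, the difference was -11.59 for PH02Gene29633, -3.08 for HCT PH02Gene48963, -2.66 for F5H PH02Gene18881, -2.29 for F5H PH02Gene15790, -1.94 for C4H PH02Gene46974, -1.76 for 4CL PH02Gene22501, -1.63 for F5H PH02Gene18882 and -1.18 for C4H PH02Gene44264. The fitted value of PH02Gene29633 is no bound, since CK 3 h was at 0 counts. PheCAD3 went the other way, with 1.99, and was the single riser among the named genes whose effect was larger at 24 h by a difference past the threshold.

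Among the genes that fell at 3 h, the difference was 7.83 for CCoAOMT PH02Gene50882, which rests on the low counts given above, 4.12 for CSE PH02Gene38043, 1.49 for HCT PH02Gene19042, 1.22 for PAL PH02Gene08452, 1.19 for F5H PH02Gene34078, 1.15 for C3H PH02Gene03849 and 1.09 for 4CL PH02Gene26838. For PAL PH02Gene23138 it was -1.04 and for PAL PH02Gene08453 -2.84, so that these PAL genes were further below CK at 24 h. PH02Gene23138 averaged 3.49 FPKM in SA 24 h and 53.2 FPKM in CK 24 h, and 1.10 FPKM in SA 3 h and 10.9 FPKM in CK 3 h. PH02Gene08453 averaged 0.244 FPKM in SA 24 h and 4.05 FPKM in CK 24 h, and 0.161 FPKM in SA 3 h and 0.501 FPKM in CK 3 h. The means of both were thus higher at 24 h than at 3 h in SA and in CK, without a test.

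Among the genes under the threshold at 3 h, the difference was -4.23 for PheCAD11, -3.06 for HCT PH02Gene19041, -1.53 for PheCAD14, -1.13 for PAL PH02Gene27016 and 1.21 for PheCAD13. PheCAD11 had a log2 fold change of 1.63 at 3 h and -2.60 at 24 h. Its CK mean moved too: it averaged 1.03 FPKM in SA 3 h and 0.421 in CK 3 h, and 0.269 in SA 24 h and 1.58 in CK 24 h. PheCAD14 averaged 2.32 FPKM in SA 3 h and 1.70 in CK 3 h, and 10.3 in SA 24 h and 16.6 in CK 24 h.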

How the results depend on the processing

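With the library totals, chosen after seeing the data, 8711 genes fell, against 5583 with TMM, and 19 genes of the lignin list rose and 40 fell, against 29 and 25. With limma on log2(FPKM + 0.1) 3740 genes and 16 list genes rose, and with limma on log2(FPKM + 1) 3125 genes and 13 list genes rose, against 5665 and 29 with edgeR. The fits on FPKM differ from edgeR in the model, the pseudocount, the scaling and the genes (29281 passed the minimum), and the part of each was not tested. The log2 fold change of HCT PH02Gene24931, 0.13 with TMM, was -0.24 with the library totals, -0.24 with limma on log2(FPKM + 0.1) and -0.23 on log2(FPKM + 1). That of PheCAD6 was -0.19 and that of PheCAD7 -0.26 with the library totals, and leaving out 1 replicate gave -0.22 to 0.36 for PheCAD6 and -0.16 to 0.31 for PheCAD7, both at under 10 counts per library. Leaving out each SA 3 h and CK 3 h replicate in turn gave 5131 to 5268 risers and 5462 to 5609 fallers over all genes, and 22 to 27 risers and 23 to 27 fallers in the list. The counts under DESeq2, its size factors, no filter and the other sets of libraries, for the comparisons with PEG, NaCl and ABA and for the time points too, stayed within 1.5 times the values reported.

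Replicates of the same number did not deviate together (r of -0.05 to 0.01 across 16856 genes), beside r of -0.03 to 0.07 for different numbers. These values show no pairing by number, but weak correlations across genes cannot settle whether samples were handled together. With the replicate block, 5607 genes rose and 5535 fell, and 28 list genes rose and 25 fell. Of all 11248 genes past the threshold, 11028 kept their call with the block. Among the named genes, PheCAD11 passed with it (1.59), and PH02Gene50943 (-11.20) and PH02Gene13343 (-9.79) did not.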

Other observations

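Neighbouring identifiers were compared as a description. Over 22737 pairs of consecutive PH02Gene identifiers with both genes tested, the second gene rose in 14.4% of all pairs and in 23.3% of the pairs whose first gene rose. It fell in 14.4% of all pairs and in 19.6% of those whose first gene fell. In opposite directions, the second gene fell in 11% of the pairs whose first gene rose, and rose in 11.2% of those whose first gene fell. The longest runs held 6 consecutive identifiers that rose and 6 that fell, and 24 runs of at least 4 rose and 12 fell. No background was computed for the runs, so whether these are more than so many called genes would give was not tested. Whether consecutive identifiers are close copies that share reads was not tested.

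The files also hold loci named as new genes, 8155 of 59091. Of the 5908 tested, 15.4% rose and 12.5% fell, beside 14.3% and 14.6% of the 33181 genes tested with a PH02Gene identifier. They held 6.37% to 6.50% of the counts in the SA 3 h libraries and 7.07% to 7.24% in the CK 3 h libraries.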
